A study of Homo sapiens with 4 samples.

Results

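Keratins are the intermediate filament proteins of epithelial cells. A filament is built from obligate pairs of 1 acidic type I and 1 basic to neutral type II keratin, and the partners stabilise each other, so that epithelia are described by the pairs they carry. KRT8 and KRT18 are the main pair of simple, single-layered epithelium such as the lining of the colon, KRT19 is added in ductal and intestinal cells, and KRT20 is a type I keratin of differentiated cells of the gut lining. The keratins described here are the type II genes KRT7, KRT8 and KRT80 and the type I genes KRT18, KRT19, KRT20 and KRT23. They are a list of gene names, drawn up with earlier results of these data known, and make up 7 of the 55 keratin genes and 7 of all 19729 genes listed. All 7 were found in every library.

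They were measured by RNA-Seq in HT-29, a microsatellite-stable human colorectal cancer cell line that carries BRAF-V600E and a mutated, truncated APC. APC is the scaffold of the complex that degrades beta-catenin, and the comparison asks how the transcriptome of these cells differs once APC is silenced. One group carried a doxycycline (DOX)-inducible shRNA against APC from a lentiviral vector ("APC shRNA", n = 2 libraries), the other a DOX-inducible non-silencing shRNA from the same vector ("NonS", n = 2 libraries). Both groups received 500 ng/ml DOX for 72 h, so the drug, the vector and an induced hairpin are shared by the controls. The groups represent 1 shRNA sequence each in transduced cells of 1 line, used at an early passage after transduction, and replicates I and II are biological duplicates.

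The deposited values are whole numbers that behave like rounded abundances scaled to transcript length and library size rather than like read counts. They are called values here, and the depth in reads behind them is unknown. They summed to between 398338 and 413595 per library. The targeted gene, APC, had a value of 3 in 1 NonS library (replicate I) and of 0 in the other 3 libraries. These values are too low to check the silencing, which the paper reports for both APC mRNA and APC protein. The epithelial markers EPCAM, CDH1, CLDN3, CLDN4 and VIL1 were at 29 or more in every library, and CDX2 at 0, 0, 2 and 4. Their summed value was 507 and 562 in NonS and 532 and 605 in APC shRNA. Of 9 markers of immune, stromal and endothelial cells, 7 were at 0 in every library, and the list summed to 6 and 7 in NonS and 3 and 4 in APC shRNA, from CD68 and ACTA2. The part of such cells in the results was not tested.

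The 7 genes lie in 2 clusters of the genome, and their messages differ in how much sequence they share with other genes, which decides how well 50-base reads can be assigned to them. To show what the messages share, the 27 bases that encode the end of the central helical rod, the stretch all intermediate filament proteins keep best, are given with their positions in GRCh38. Letters in capitals differ from KRT8 at the same place. The type II genes are KRT7 (chr12:52245598-52245624, plus strand), KRT8 (chr12:52898687-52898713, minus strand) and KRT80 (chr12:52172206-52172232, minus strand), and each stretch is written 5′ to 3′ along the message.
KRT8: acctacaggaagctgctggagggcgag
KRT7: acctacCgCaagctgctggagggcgag
KRT80: acctacaggaagctgGtggagggcgag

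KRT80 differed from KRT8 at 1 of the 27 bases and KRT7 at 2. The type I genes are KRT18, which lies beside KRT8 on chromosome 12 (chr12:52952305-52952331, plus strand), and on chromosome 17 KRT19 (chr17:41523785-41523811, minus strand), KRT20 (chr17:40878153-40878179, minus strand) and KRT23 (chr17:40925362-40925388, minus strand). The capitals again mark differences from KRT8.
KRT18: acctacCgCCGCctgctggaAgATgGC
KRT19: acctacCgCaGCctgctCgagggACag
KRT20: acTtacCgCCGCctTctggaAggAgaA
KRT23: acGtacCgACGgctCctggagggAgag

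The type I genes differed from KRT8 at 7 bases (KRT19, KRT23) or 10 bases (KRT18, KRT20). After this stretch the KRT19 protein has only 13 residues left, whereas the other 6 proteins have between 43 (KRT18) and 85 (KRT8), since KRT19 lacks most of the tail domain. Over the whole proteins, identity was 43.1% to 65.1% among the 3 type II pairs, 40.6% to 51.6% among the 6 type I pairs and 28.2% to 33.8% between the types, in global alignments of translated GENCODE v29 transcripts.

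The most expressed keratins were also the ones with the most copies elsewhere. KRT8 and KRT18 have large families of processed pseudogenes, which are copies of the message written back into the genome. Of all 50-base windows along the KRT8 message, 32.7% occurred without a mismatch in the annotated transcript of another gene and 65.7% within 2 mismatches, and for KRT18 these shares were 31.8% and 77.3%. The windows of KRT8 were shared with 67 other genes, 47 of them KRT8 pseudogenes, and those of KRT18 with 70 other genes, 67 of them KRT18 pseudogenes. A window that starts at the rod end stretch shows how close the copies are. In KRT8 it crosses an exon junction (chr12:52898505-52898713, minus strand) and lies within 2 mismatches of 22 other genes, among them KRT8P45 (gene at chr1:157073257-157074703, plus strand), where the capital marks the differing base.
KRT8: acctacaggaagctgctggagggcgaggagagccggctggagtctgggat
KRT8P45: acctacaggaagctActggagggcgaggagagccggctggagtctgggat

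The window of KRT18 at the same place, also across a junction (chr12:52952305-52952733, plus strand), lies within 2 mismatches of 8 other genes, among them KRT18P11 (gene at chrX:92459670-92460952, plus strand). That of KRT19 (chr17:41523762-41523811, minus strand) lies within 2 mismatches of 0 other genes.
KRT18: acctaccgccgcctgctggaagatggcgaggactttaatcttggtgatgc
KRT18P11: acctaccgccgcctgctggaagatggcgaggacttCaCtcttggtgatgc
KRT19: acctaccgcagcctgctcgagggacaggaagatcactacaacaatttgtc

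For KRT19 the share of windows within 2 mismatches was 25.8%, mostly through KRT19P1, and only 1.79% were exact. It was 7.33% for KRT7, 2.28% for KRT80, 0.413% for KRT23 and 0% for KRT20. The values of KRT8 and KRT18 are uncertain in this respect, since how the counting treated reads that match several genes could move them. No KRT8, KRT18 or KRT19 pseudogene is among the genes analysed here. KRT8 and KRT18 also overlap on opposite strands over 525 exonic bases in the annotation, KRT7 overlaps KRT7-AS over 282 and KRT23 overlaps AC004231.1 over 186. The library kit kept the strand, but the strand setting of the counting is not given in the sources used here.

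KRT18, KRT8 and KRT19 were among the most abundant messages of these cells. KRT18, the type I partner of KRT8, had values of 1550 and 1796 in the NonS duplicates and of 2061 and 2083 in the APC shRNA duplicates, with replicate I first here and throughout. It ranked between 18 and 27 among all genes of a library. Both APC shRNA libraries were above both NonS libraries. KRT8, the type II partner, had values of 1202 and 1531 in NonS and of 1534 and 1482 in APC shRNA, with ranks between 28 and 39. NonS replicate I was low and the other 3 libraries were close together, so the groups overlapped. KRT18 was above KRT8 in all 4 libraries.

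KRT19 had values of 539 and 836 in NonS and of 483 and 640 in APC shRNA, with ranks between 55 and 92. In both groups replicate II was the higher one, and the groups overlapped. KRT20, the differentiation keratin, had the same form at a lower level, with values of 180 and 266 in NonS and of 195 and 247 in APC shRNA and ranks between 176 and 246. Its APC shRNA libraries lay between its NonS libraries.

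The remaining 3 keratins were far lower. KRT80, a type II keratin found in many epithelia and linked there to cell junctions and the cell cortex, had values of 21 and 34 in NonS and of 54 and 59 in APC shRNA, and its groups did not overlap. KRT23, a type I keratin, had a value of 2 in both NonS libraries, against 9 and 17 with the APC shRNA. KRT7, a type II keratin of ductal epithelium that is usually low in the colon, had values of 3 and 5 in NonS, against 4 in either APC shRNA library.

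The order of the levels, per length, was KRT18, KRT8, KRT19, KRT20 and KRT80 in every library. Within a group the libraries of each gene lay apart from those of the next, most narrowly for KRT8 and KRT18 in NonS, where the higher KRT8 value (1531) nearly met the lower KRT18 value (1550). At the low end the order differed between the groups, with KRT7 above KRT23 in NonS (4 ± 1.41 against 2 ± 0) and KRT23 above KRT7 in APC shRNA (13 ± 5.66 against 4 ± 0, all SD, n = 2). Whole-number rounding leaves few steps at these levels. Whether a different value comes from another number of expressing cells or from another amount of RNA per cell cannot be told apart in bulk RNA.

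**Figure D1:**
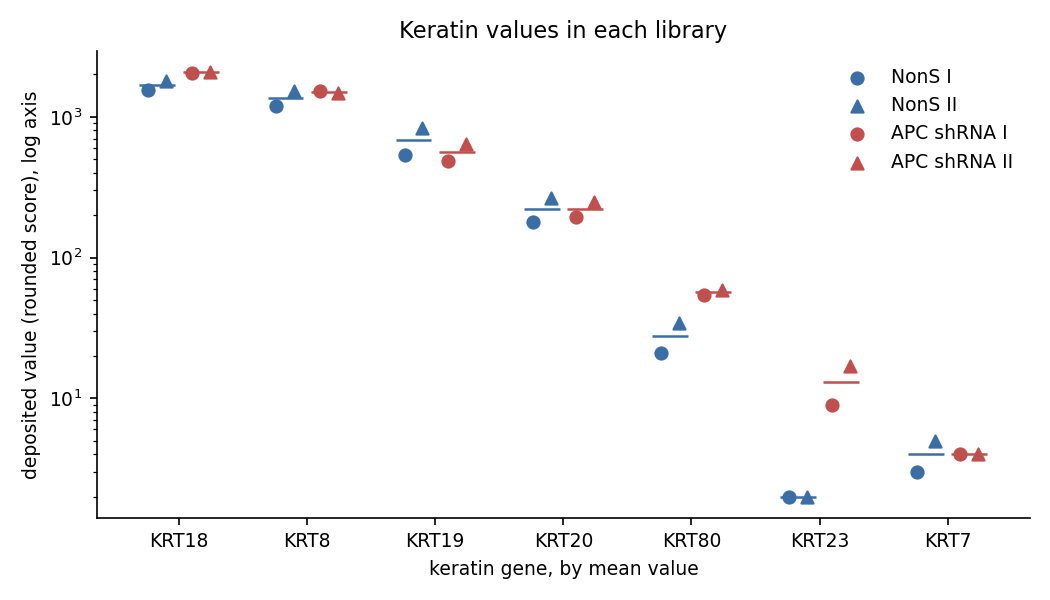
Deposited value (y axis, log scale) of each keratin in each of the 4 libraries, with blue for NonS, red for APC shRNA, circles for replicate I, triangles for replicate II and a line at the mean of the 2 libraries of a group. The APC shRNA libraries lie above both NonS libraries for KRT18, KRT80 and KRT23, and the groups overlap for KRT8, KRT19, KRT20 and KRT7.

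To compare the conditions, log2(value + 1) was fitted with limma over the 5376 genes whose mean value was 10 or more, and a gene was called at a Benjamini-Hochberg adjusted p under 0.05. This calls 8.04% of all genes tested, 4.33% higher and 3.7% lower in APC shRNA. With 1 library left out, only 1 residual degree of freedom remained and limma called 0 genes, although 1119 to 1330 had an unadjusted p under 0.05, so these refits do not check the calls. Of the 7 keratins, 5 reached the mean of 10 and 0 of the 5 were called by limma, while 2 (KRT18 and KRT80) had an unadjusted p under 0.05, as had 35.6% of all genes tested. With 2 libraries a group, an exact permutation test of a single gene cannot go below 0.333 (two-sided). At the thresholds of the study, an adjusted p under 0.01 together with more than a 4-fold change, the share of genes called by this fit was 0. The study applied these thresholds to read counts with DESeq2 and reported genes in both directions. The share of 0 therefore does not describe the study's own comparison. The smallest adjusted p of any gene in this fit was 0.0423, so none could pass 0.01 at any fold change. All calls of this fit therefore lay between 0.0423 and 0.05.

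KRT80 had the largest difference among the 5 tested, 1.05 on the log2(value + 1) scale (SE 0.28, 95% confidence interval 0.19 to 1.91, adjusted p = 0.107). Its mean value was 27.5 ± 9.19 in NonS and 56.5 ± 3.54 in APC shRNA (SD, n = 2), a ratio of 2.05. The difference was 1.32 between replicates I and 0.78 between replicates II, and 250 of the genes tested had a difference larger in size, 131 of them higher in APC shRNA. After a correction for GC content KRT80 was called, at a difference of 0.96 and an adjusted p of 0.0482, in a fit that called 16.7% of genes. Its adjusted p ran from 0.0104 to 0.193 over 13 alternatives that kept all 4 libraries, and from 0.181 to 0.395 with 1 library left out.

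KRT18 had a difference of 0.31 (SE 0.099, 95% confidence interval 0.00389 to 0.62, adjusted p = 0.138), with mean values of 1673 ± 174 in NonS and 2072 ± 15.6 in APC shRNA, a ratio of 1.24. Its replicates were 0.21 apart in NonS and 0.015 apart in APC shRNA on the log2 scale. KRT8, its partner, had a difference of 0.15 (SE 0.15, 95% confidence interval -0.31 to 0.62, adjusted p = 0.507), with means of 1366.5 ± 233 and 1508 ± 36.8. This difference was carried by NonS replicate I, without which it was -0.022.

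KRT19 had a mean of 561.5 ± 111 in APC shRNA and of 687.5 ± 210 in NonS, a ratio of 0.817. The difference of -0.27 (SE 0.30, 95% confidence interval -1.21 to 0.67, adjusted p = 0.559) was smaller than the gap between the replicates, of which II was above I by 0.63 in NonS and by 0.41 in APC shRNA. Between libraries of the same number it was -0.16 and -0.38, lower in APC shRNA in both. Without NonS replicate II it was 0.045. The mean of KRT20 was 223 ± 60.8 in NonS and 221 ± 36.8 in APC shRNA. Its difference was 0.0042 as deposited and turned to between -0.033 and -0.0027 under 3 other scalings (95% confidence interval as deposited -0.82 to 0.83, adjusted p = 1.0). That interval leaves room for a change of either sign. Replicate II was above replicate I by 0.56 and 0.34, in the same direction as for KRT19.

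KRT23 and KRT7 had means of 7.5 and 4 over the 4 libraries and did not enter the test. Of all 12799 genes above 0 in some library, 25.9% had both APC shRNA libraries above both NonS libraries, and KRT23 was one of them. A ratio of the means of 6.5 (13 over 2) was the largest among the 7 keratins, but depth is unknown and no counting interval can be given. Fitted without the filter, KRT23 differed by 2.16 on the log2(value + 1) scale (SE 0.38, 95% confidence interval 0.79 to 3.53, adjusted p = 0.100 by limma), a fit in which 11.5% of genes were called. The equal NonS values of KRT23 leave no spread in that group, so this interval and p rest on a spread partly lost to rounding. Between single libraries of the same number the difference was 1.74 and 2.58. For KRT7 that fit gave 0.029 (adjusted p = 1.0).

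Both APC shRNA values exceeded both NonS values for 3 of the 7 keratins (KRT18, KRT23, KRT80). Among the 5 tested it was 2, and the same held for 33% of all genes tested, while in 60.5% the groups did not overlap in one or the other direction. The median difference of the 5 was 0.15 and that of all genes tested 0.027.

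**Figure D2:**
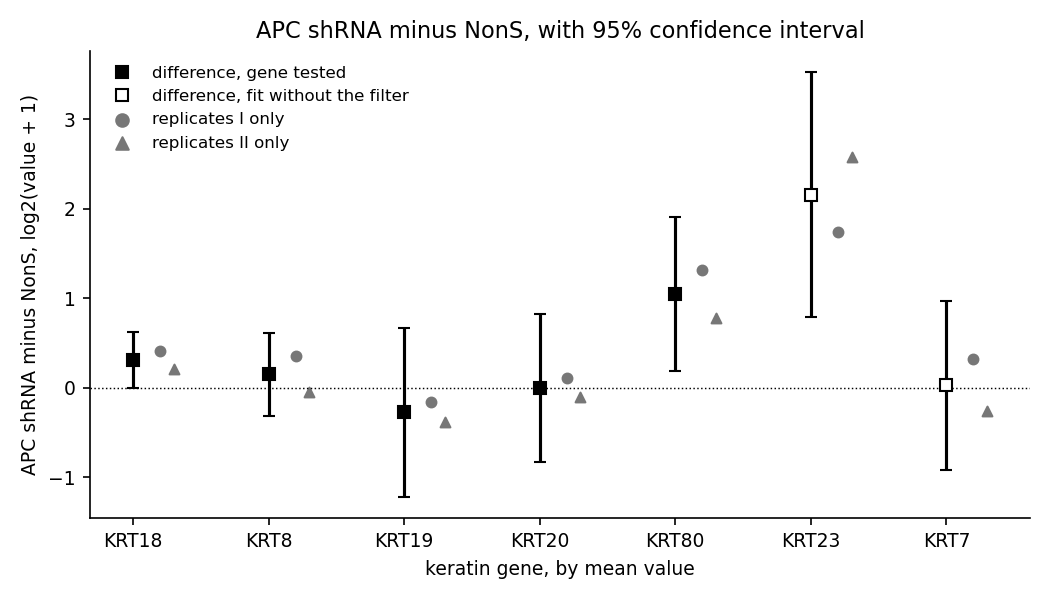
Difference APC shRNA minus NonS in log2(value + 1) (y axis) for each keratin, with its 95% confidence interval from limma. Filled squares are the 5 genes tested, open squares KRT23 and KRT7 from the fit without the filter, and grey points the difference between libraries of the same number. Only the intervals of KRT18, KRT80 and KRT23 lie above 0, that of KRT18 with its lower end at 0.00389. None of these 3 was called after adjustment over all genes. In the fit without the filter, not drawn for them, the intervals of KRT18 and KRT80 include 0 (lower ends -0.033 and -0.052).

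Because type I and type II keratins pair one to one, their balance was described within each library, where scaling between libraries cancels out. The 7 keratins summed to 3497 and 4470 in NonS and to 4340 and 4532 in APC shRNA, which is 0.878%, 1.09%, 1.05% and 1.10% of everything listed. NonS replicate I was the low library and the other 3 were close together. KRT8 and KRT18 made up 78.7% and 74.4% of that sum in NonS and 82.8% and 78.7% in APC shRNA. The sum of the type II genes over that of the type I genes was 0.540 and 0.541 in NonS and 0.579 and 0.517 in APC shRNA. The APC shRNA libraries lay on either side of the NonS libraries, with a mean log2 difference of 0.018.

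Ratios of single genes differed more between the groups than the ratio of the sums. The ratio of KRT8 to KRT18 was 0.775 and 0.852 in NonS and 0.744 and 0.711 in APC shRNA, lower in both APC shRNA libraries. That of KRT19 to KRT18 was 0.348 and 0.465 in NonS and 0.234 and 0.307 in APC shRNA, again without overlap. KRT20 over KRT19 was 0.334 and 0.318 in NonS and 0.404 and 0.386 in APC shRNA, which is 0.326 ± 0.0112 against 0.395 ± 0.0126 (SD, n = 2). These ratios were computed after the levels were known and are given without a test. They share genes with each other, and the values of KRT8 and KRT18 are uncertain because of their copies. Among single genes tested, 60.5% had groups without overlap in one or the other direction, and no such share was computed for ratios. Both genes of the last ratio differed more between replicates I and II than between the groups, while their ratio stayed nearly the same within a group.

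**Figure D3:**
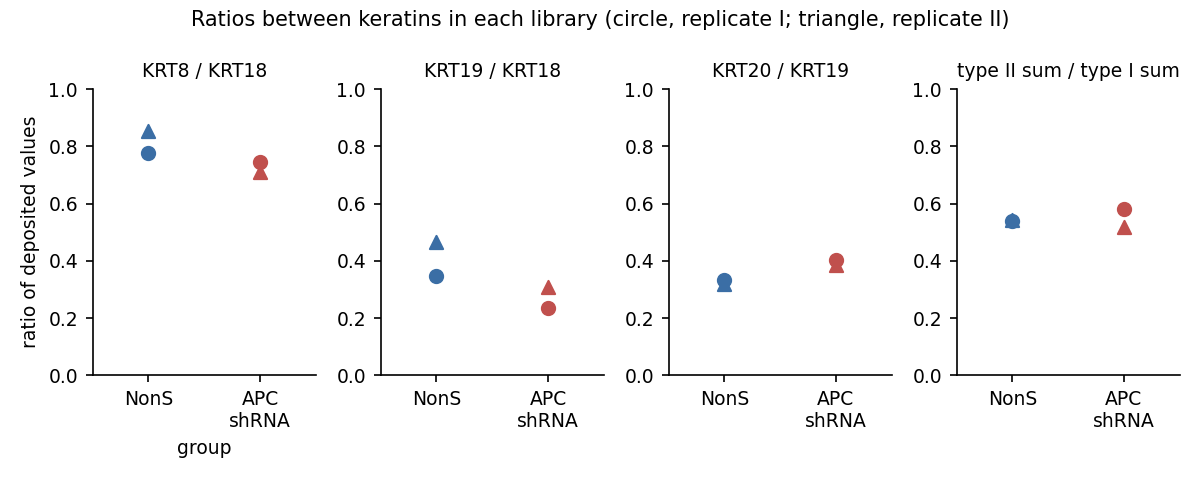
Ratio of deposited values (y axis, linear from 0) in each library, by group, for KRT8 over KRT18, KRT19 over KRT18, KRT20 over KRT19 and the summed type II over the summed type I keratins. The first 3 ratios do not overlap between NonS and APC shRNA, and the ratio of the sums does (0.517 to 0.579 in APC shRNA, around 0.540 in NonS). How often ratios of other genes do not overlap was not computed.

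The rest of the keratin family was almost silent. The 7 genes held between 98.1% and 98.6% of all keratin value in each library. Of the other 48 keratin genes, 34 were at 0 in every library, among them the epidermal keratins KRT1, KRT5 and KRT14. Of the 14 above 0, 3 had a mean of at least 10. KRT13, a type I keratin of stratified mucosa, had values of 16 and 21 in NonS and of 7 in both APC shRNA libraries. KRT13 was the 1 keratin called (difference -1.27, adjusted p = 0.0483 by limma), close to the threshold, as were all calls of this fit, from 0.0423 upward. It reached the mean of 10 only through its NonS values, and its equal APC shRNA values leave no spread in that group. It did not enter the alternative fit with at least 10 in every library. With all 4 libraries it was called under 9 of 12 alternatives and not under 3, among them the fit without the filter (adjusted p = 0.0673), with a range of adjusted p from 0.00401 to 0.0673. With 1 library left out its difference was between -1.46 and -1.09 and it was not called. The fit without the filter called KRT81, a hair keratin with a value of 0 in each NonS library, against 1 in each APC shRNA library (adjusted p = 0.000106), whose equal whole numbers leave no spread within a group. KRT17, a type I keratin of basal and wounded epithelium, had values of 5 and 8 in NonS and of 13 and 18 in APC shRNA. It reached the mean of 10 only through the APC shRNA values (difference 1.15, adjusted p = 0.104 by limma). It was called under 3 of 12 alternatives with all 4 libraries and not under 9. The 3 were GC content correction (adjusted p = 0.0484), the replicate block (adjusted p = 0.0468) and both together (adjusted p = 0.00372). Over the 12 its adjusted p ranged from 0.00372 to 0.188. KRT6A, a type II keratin that pairs with KRT17 in wounded skin, had values of 8 and 12 in NonS and of 12 and 13 in APC shRNA (difference 0.32, adjusted p = 0.373). Of KRT17 and KRT6A windows, 69.0% and 72.0% lay within 2 mismatches of another gene, so their values are uncertain, whereas for KRT13 it was 6.67%.

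Among the 11 lower ones, KRT40, a type I hair keratin gene close to KRT23 on chromosome 17, was singled out after its values were seen. Its values were 1 and 2 in NonS, against 10 and 16 with the APC shRNA, close to the values of KRT23, and it was not called without the filter (difference 2.48, adjusted p = 0.085 by limma). Only 0.340% of its windows lay within 2 mismatches of another gene. KRT39, which lies between KRT23 and KRT40, had values of 0 and 0 in NonS and of 0 and 1 in APC shRNA. KRT20, which lies on the other side of KRT23, did not share the pattern either.

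**Figure D4:**
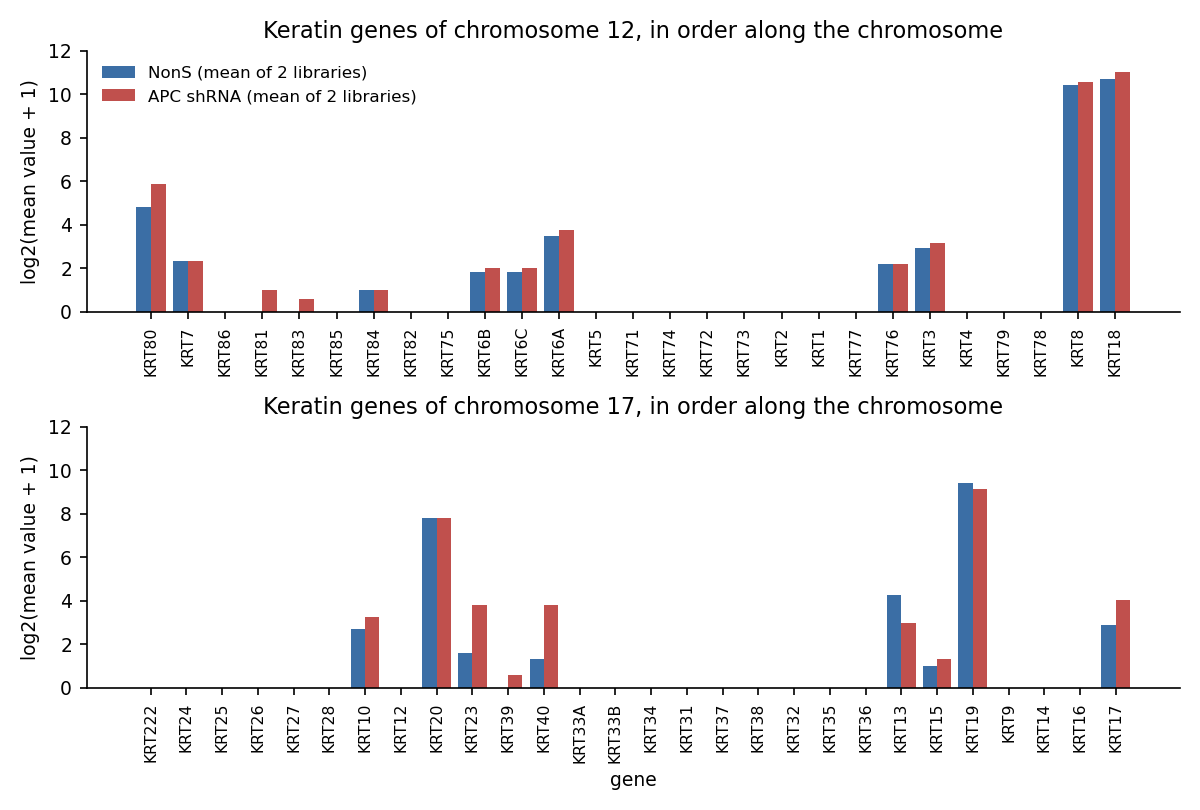
Mean of the 2 libraries of each group as log2(mean value + 1) (y axis) for all 55 keratin genes, in their order along chromosome 12 (27 genes, upper panel) and chromosome 17 (28 genes, lower panel), with blue for NonS and red for APC shRNA. KRT8, KRT18, KRT19 and KRT20 stand far above genes that are mostly at 0, and KRT23 and KRT40 show a low NonS and a higher APC shRNA bar.

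Keratin filaments end at desmosomes, the junctions that tie neighbouring epithelial cells together, through linker proteins of the plakin and armadillo families. Of 18 such genes 9 were tested and 0 were called by limma, against 8.04% of all genes tested. An unadjusted p under 0.05 was found for 1 of the 9, against 35.6% of all genes tested, and their median difference was 0.058. JUP, which encodes plakoglobin, had values of 119 and 132 in NonS and of 157 and 148 in APC shRNA (difference 0.28, adjusted p = 0.130). The desmosomal cadherin DSG2 had values of 22 and 18 in NonS and of 15 and 9 in APC shRNA (difference -0.72, adjusted p = 0.199), and the epidermal cadherins DSG1 and DSG3 were at 0 in every library.

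Of 15 intermediate filament genes other than keratins, 10 were at 0 in every library, among them VIM, the filament of mesenchymal cells. NES (1 and 1 in NonS, 4 and 5 in APC shRNA) and BFSP1 (0 and 0, against 1 and 1) were too low to be tested. The fit without the filter called both higher, but equal whole numbers leave no spread in NonS for NES and in either group for BFSP1. The 3 tested encode the lamins, which line the inside of the nucleus, and 2 of them were called lower, against 3.7% of all genes tested. LMNB1 had values of 61 and 57 in NonS and of 33 and 31 in APC shRNA (difference -0.86, SE 0.071, adjusted p = 0.0423). LMNB2 had values of 58 and 59 in NonS and of 41 and 38 in APC shRNA (difference -0.56, SE 0.066, adjusted p = 0.0479). LMNA, at 224 and 274 against 165 and 184, had a difference of -0.51 and was not called (adjusted p = 0.115), but was after GC content correction (adjusted p = 0.0334, with a range from 0.00516 to 0.195 over 13 alternatives).

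Of 8 genes for proteins that bind or modify keratins, 5 were tested, with a median difference of -0.42. By limma 0 were called, against 8.04% of all genes tested. An unadjusted p under 0.05 was found for 2 of the 5, against 35.6% of all genes tested. SFN, the 14-3-3 sigma protein of epithelial cells, which binds keratins, had values of 70 and 76 in NonS and of 39 and 30 in APC shRNA (difference -1.07, adjusted p = 0.0582), and was called under 6 of 13 alternatives with all 4 libraries. Of 13 transcription factors of epithelium, 7 were tested, and the median difference was -0.22. Of the 7, 1 was called higher and 1 lower, against 4.33% and 3.7% of all genes tested. JUN, a subunit of AP-1, had values of 21 and 23 in NonS and of 66 and 72 in APC shRNA (difference 1.61, SE 0.085, adjusted p = 0.0423). KLF5, a factor of proliferating crypt cells, had values of 100 and 88 in NonS and of 49 and 52 in APC shRNA (difference -0.88, SE 0.094, adjusted p = 0.0460).

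Other markers of colonic differentiation were low next to KRT20. Of 11 such genes 10 were analysed here, 5 were at 0 in every library, and only TFF3 and VIL1 were tested. TFF3, a goblet cell peptide, had values of 19 and 17 in NonS and of 12 and 9 in APC shRNA (difference -0.73, adjusted p = 0.0927). VIL1, the villin of the brush border, had values of 29 and 31 in NonS and of 39 and 35 in APC shRNA (difference 0.29, adjusted p = 0.123). Neither was called.

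The genes whose profile over the 4 libraries was closest to that of each keratin were found by the root-mean-square distance of centred log2(value + 1). For KRT18 they were GET4 (0.0136) and STARD3 (0.0139), and for KRT8 ARRDC1 (0.0256) and ATP6V0C (0.0313). For KRT20 they were DDR1 (0.0216) and H1FX (0.0295), and for KRT19 PKM (0.0389), with values of 840 and 1302 in NonS and 802 and 1036 in APC shRNA, and TGFB1 (0.0525). KRT80 had no equally near neighbour, the closest being AC244197.3 (0.0885) and MMP24 (0.0981). With 4 libraries such likeness is only a description.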

How the data were processed

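RNA of HT-29 cells with NonS shRNA or APC shRNA was sequenced in biological duplicates, as 50-base single reads. The authors filtered reads, trimmed polyA tails, mapped with TopHat2 and counted per gene with htseq-count. The methods name GRCh38 with GENCODE v29, the labels hg19, so positions here are those of GENCODE v29. Submitters' processing notes on the authors' pipeline list bcl2fastq 2.19.0.316 and DESeq2 1.4.1. The deposited values, 1 whole number per gene and library, were handled as a score whose scale is not stated, which was inferred: replicates of low genes varied 0.484 (NonS) and 0.363 (APC shRNA) times as much as Poisson counts, and value times longest transcript length in kb summed to a mean of 982856 per library with a coefficient of variation of 0.227%. No count model was run, and depth is unknown. A deposited table of the authors' own comparison (mean, log2 fold change, fold change, adjusted p-value) was not used, and 0 other per-sample columns were left out.

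Groups came from the sample labels. log2(value + 1) was compared with limma 3.58.1 (R 4.3.3; mean-variance trend, mean of at least 10, two-sided), tested on simulated data first. Alternatives covered pseudocount (0.1, 5), scaling, filter, moderation, GC content, replicate block and each library left out. Sequence windows and summaries were made with Python 3.11.15 and pandas 2.3.3. Of 19729 genes, 19502 matched GENCODE v29. The named genes were all 7 keratins, APC, other keratins with a mean of at least 10, called members of the gene lists (at most 4 per list and direction) and the 2 nearest profiles per tested keratin. The uncalled list genes with values (JUP, DSG2, LMNA, SFN, TFF3, VIL1), KRT40 and its neighbour KRT39 were added after their values were seen. So were NES and BFSP1, which were called only without the filter. The members and lists were chosen with earlier results of these data known.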

Additional observations from a re-analysis of the deposited data

How the results depend on the processing

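With a main count of 233 genes higher and 199 lower, other settings gave 952 and 515 without the filter, 368 and 352 with robust moderation, 445 and 450 after GC content correction, 139 and 134 with at least 10 in every library, and 310 and 305, 343 and 369, and 336 and 349 under median-of-ratios, equal-total and upper-quartile scaling. At the thresholds of the study both counts were 0, and with 1 library left out they ranged from 0 to 0, a design too small to pass. A lone library is then assumed to vary like the other group. Labels do not say that a replicate number marks a shared day. The differences between replicates II and I were correlated between the groups (0.724 across genes, which are not independent replicates), a hint from the data and not from the design. With the replicate block 523 genes were higher and 500 lower, and 0 of the 5 tested keratins of the list were called. Of the other keratins, KRT17 was then called higher (adjusted p = 0.0468 by limma) and KRT13 lower (adjusted p = 0.0487). With the replicate block and GC correction together 1230 of 5364 genes were higher and 1238 lower. Of the same 5 keratins 1 was called higher (KRT80, adjusted p = 0.0104) and 1 lower (KRT19, -0.38, adjusted p = 0.0219). KRT17 (adjusted p = 0.00372, higher) and KRT13 (adjusted p = 0.00401, lower) were called as well. GC correction alone called 1 of these 5, KRT80. Of the other keratins it called KRT17 (adjusted p = 0.0484 by limma) and KRT13 (adjusted p = 0.0149). No other alternative changed the call of any of these 5 keratins. Of the called genes, JUN and LMNB1 were called under 13 of 13 alternatives with all 4 libraries, KLF5 under 12 (not with the replicate block, adjusted p = 0.0510), LMNB2 under 11 and KRT13 under 9 of 12.

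Of the keratin differences, that of KRT18 stayed between 0.21 and 0.42 and that of KRT80 between 0.71 and 1.38 with 1 library left out. KRT8 ranged from -0.022 to 0.33, KRT19 from -0.59 to 0.045 and KRT20 from -0.28 to 0.28. KRT20 was also -0.0027, -0.025 and -0.033 under the 3 scalings. As values with no test, an alternative added after seeing the data, KRT23 ranged from 1.74 to 2.58 and KRT7 from -0.26 to 0.32. The log2 ratio of type II to type I keratins differed by -0.16 with KRT8 over KRT18 alone, by -0.011 with values weighted by length and by -0.064 to 0.0998 with 1 library left out. The causes were not tested.

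The precision is limited by 2 libraries a group, by rounding to whole numbers for KRT7 and KRT23, and by copies elsewhere in the genome for KRT8 and KRT18.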
